A study of Rattus norvegicus with 6 samples.

Results

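The provisional matrix is the loose matrix of embryonic and healing tissue, and 6 genes were taken to represent it: fibronectin (Fn1), periostin (Postn), tenascin-C (Tnc), versican (Vcan), the hyaluronan synthase Has2 and the hyaluronan receptor Cd44. They were followed in the Achilles tendons of newborn rats on post-natal day 1 and post-natal day 7, with 3 arrays of each age. Each array carried total RNA from a pool of 2 or more animals, hybridised to a short-oligonucleotide expression array of the rat transcriptome, and the sources used here name neither strain nor sex. Members were the probe sets that the array annotation assigned to exactly 1 gene, that gene being one of the 6. This found all 6 genes, of 14217 genes named in this way, through 11 of the 31042 probe sets tested. The brightest probe set of a gene, by its mean log2 value over the 6 arrays, stood for the gene. Vcan thus had 4 further probe sets and Cd44 had 1, which served as a check, while Fn1, Postn, Tnc and Has2 had none.

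Fibronectin is secreted as a dimer and pulled into fibrils by integrins at the cell surface, and tenascin-C and periostin bind to that network. Versican is a large chondroitin sulphate proteoglycan that binds hyaluronan, the long sugar polymer extruded by the hyaluronan synthases, and together they hold water and keep cells apart. CD44 ties hyaluronan to the cell surface and the cytoskeleton. In tendon such a matrix surrounds the cells while collagen fibrils are laid down, and it returns after injury.

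The comparison of day 7 with day 1 asks which of these transcripts differed between the newborn tendon and the tendon about 1 week into post-natal growth. Values are intensities on a linear scale, and a log2 change is the day 7 mean of log2(value + 1) less that of day 1. Intensities are compared between arrays for the same probe set and never between probe sets. Sums over a marker list add the intensities of different probe sets, so the brightest weigh most, and are compared only between arrays. None of the 6 genes passed the threshold, an adjusted p under 0.05 in limma's moderated test (Benjamini-Hochberg, adjusted across the whole array), in either direction. Over all genes 1.93% were called higher and 3.15% lower on day 7. At an unadjusted p under 0.05 the members gave 0 higher and 2 lower, Vcan and Cd44, against 10.6% and 17.0% of all genes. The same 2 genes had all day 7 arrays below all day 1 arrays, which 19.1% of all genes did, and no member had them all above, as 14.0% of all genes did. The median change of the 6 was -0.19, beside -0.01 over all genes. Nothing in the sources says how the pools relate to litters, and the tests see only the spread between these pools, part of which may be technical.

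**Figure D1:**
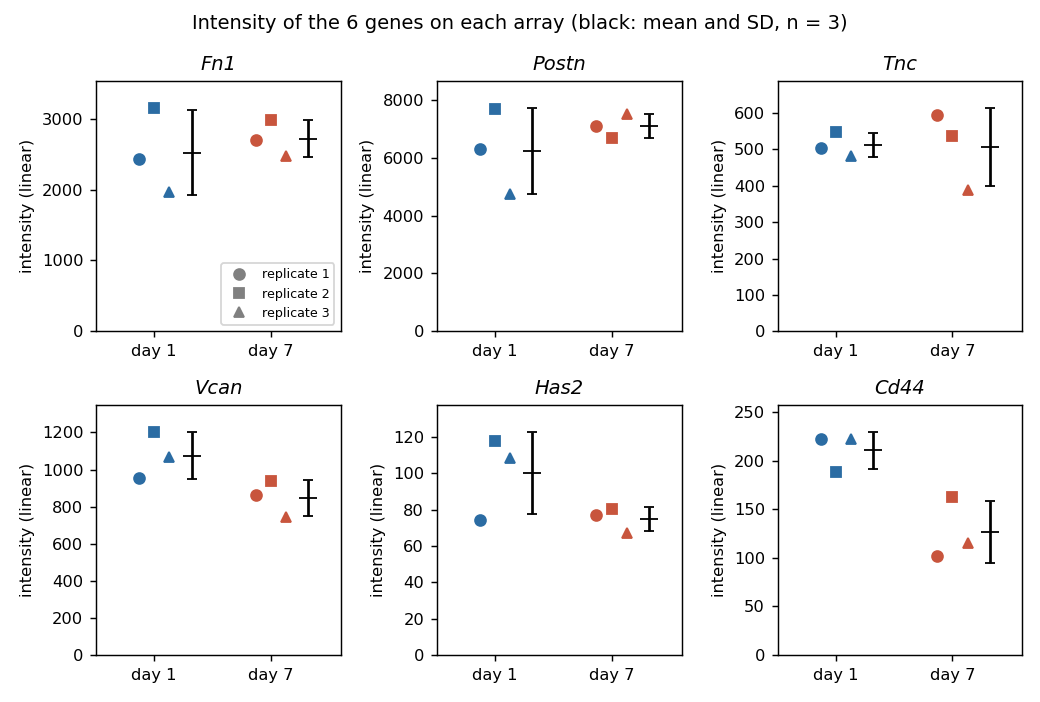
Intensity of each of the 6 genes (vertical axes, linear, from 0) on the 3 arrays of day 1 and the 3 of day 7, with symbols for the replicate number and the mean and SD in black. The ages overlap for Fn1, Postn, Tnc and Has2, and every day 7 array lies below every day 1 array for Vcan and Cd44.

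The arrays differed in the summed intensity of several lists of tissue marker genes. Of 9 listed tendon markers 8 were measured, all above the bacterial trp control probe sets, which read between 3.74 and 4.76. Scx, the transcription factor of tendon cells, read from 603.1 to 896.5, with a log2 change of 0.13 (limma adjusted p = 0.646). Of the 8 tendon markers, 2 were called higher on day 7 and none lower. Summed, these 8 reached 26219.6 to 44238.7 on day 1 and 47723.4 to 62215.9 on day 7. The summed intensity of 13 of 14 listed skeletal muscle genes was 64313.0 to 79282.0 on day 1 and 39168.9 to 57791.2 on day 7, with 4 of them called lower and none higher. Day 1 replicate 1 stood apart in the epidermal keratin and desmosome list (5 of 7 measured): the sum was 5532.6 there and lay between 135.2 and 377.2 on the other arrays. The 10 adipocyte genes, 8 of them called higher and none lower, summed to 1583.4 to 1772.0 on day 1 and 2899.2 to 5657.9 on day 7. The nerve list (6 of 8 measured) summed to 1886.0 to 2226.2 on day 1 and, on day 7, to 5795.0, 2256.4 and 8820.2 in replicates 1, 2 and 3, so that day 7 replicate 2 read like day 1 there. No marker of the 10 lists stood at or below the highest trp reading on every array. In such bulk samples, fewer cells of a type and less RNA per cell cannot be told apart.

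Promoter windows from RefSeq are shown for the 4 members matched in the table, so that the sequences before the start sites of Vcan and Cd44, whose ages did not overlap, can be set beside those of Tnc and Postn, whose ages did. Fn1 and Has2 are named only. Each line gives the 250 bases before the annotated start, 5′ to 3′ on the gene's strand, in build GRCr8. Capitals mark a match, on either strand, to one of the motifs searched. These were the TATA box letters TATAAA, the AP-1 letters TGANTCA, the TEAD letters GGAATG, the GC box letters GGGCGG, the E-box letters CANNTG and, by name, the CArG box of serum response factor. A GC box on the other strand reads CCGCCC here. No marked places overlap in these 4 windows.
Vcan: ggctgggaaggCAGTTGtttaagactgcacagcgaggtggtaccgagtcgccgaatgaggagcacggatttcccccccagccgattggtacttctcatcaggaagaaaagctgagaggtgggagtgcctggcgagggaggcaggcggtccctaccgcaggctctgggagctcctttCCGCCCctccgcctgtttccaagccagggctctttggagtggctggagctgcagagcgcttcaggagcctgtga
Cd44: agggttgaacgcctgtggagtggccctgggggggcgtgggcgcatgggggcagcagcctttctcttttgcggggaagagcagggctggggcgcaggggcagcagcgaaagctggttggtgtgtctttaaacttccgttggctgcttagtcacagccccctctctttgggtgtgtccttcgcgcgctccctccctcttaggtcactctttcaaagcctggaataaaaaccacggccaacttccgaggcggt
Tnc: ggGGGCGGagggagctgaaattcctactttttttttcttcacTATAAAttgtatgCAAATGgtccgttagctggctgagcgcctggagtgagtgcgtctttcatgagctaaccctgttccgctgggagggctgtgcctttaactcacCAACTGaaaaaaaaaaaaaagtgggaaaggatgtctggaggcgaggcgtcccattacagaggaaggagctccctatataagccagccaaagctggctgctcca
Postn: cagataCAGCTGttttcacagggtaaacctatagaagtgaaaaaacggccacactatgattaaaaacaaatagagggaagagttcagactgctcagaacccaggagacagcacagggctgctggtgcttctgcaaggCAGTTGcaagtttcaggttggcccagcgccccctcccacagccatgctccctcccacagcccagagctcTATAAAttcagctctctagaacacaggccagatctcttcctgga
The Vcan window is chr2:22595956-22596205 (minus strand), before the more upstream of 2 annotated starts that lie 98 bases apart. The Cd44 window is chr3:109699425-109699674 (minus strand), the Tnc window chr5:82476132-82476381 (minus strand) and the Postn window chr2:140677811-140678060 (plus strand).

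The windows differed in the letters they held. The TATA box letters were found in Postn, beginning 44 bases before the start, and in Tnc, beginning 208 bases before it, and 12.9% of all 33469 windows of this length hold it. Only the exact letters were searched, so near matches are not marked, such as tatataag closer to the start in Tnc. The GC box letters were found once each in Vcan and Tnc (30.5% of windows), and the E-box letters once in Vcan and at 2 places each in Tnc and Postn (65.5%). The window before the other Vcan start, not printed, held the GC box letters but not the E-box letters. The AP-1 letters (6.34% of windows), the TEAD letters (12.1%) and the CArG box (1.5%) were found in none of the 4, and the Cd44 window held none of the motifs searched. A match is a run of letters and says nothing of binding.

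Fibronectin, the scaffold protein of the group, showed no difference beyond its spread. Fn1 read 2439.0, 3157.1 and 1963.9 on day 1 (replicates 1, 2 and 3) and 2702.7, 2991.9 and 2475.1 on day 7. The highest and the lowest of the 6 values both belonged to day 1, so the ages overlapped throughout. The means were 2520.0 ± 600.7 and 2723.2 ± 259.0 (SD, n = 3). The log2 change was 0.13 (SE 0.18; limma adjusted p = 0.701), with a 95% interval of 0.82-fold to 1.46-fold, which is not adjusted for the number of probe sets. The direction rested on day 1 replicate 3, the array with the highest summed muscle intensity and the lowest summed tendon intensity, and without it the log2 change was -0.03.

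Periostin, a matricellular protein that binds fibronectin and collagen, showed no difference beyond its spread either. Postn read 6288.4, 7697.4 and 4734.2 on day 1 and 7080.0, 6672.5 and 7506.9 on day 7. Day 1 again held both extremes, and the 3 day 7 arrays lay close together between them. The means were 6240.0 ± 1482.2 and 7086.5 ± 417.2 (SD, n = 3). The log2 change was 0.21 (SE 0.18; limma adjusted p = 0.528), with a 95% interval of 0.87-fold to 1.53-fold. For both genes day 1 replicate 2 was the highest and day 1 replicate 3 the lowest of the day 1 arrays, and the summed tendon markers stood in the same order there, at 44238.7 and 26219.6. On day 7 the orders differed. The tendon sums were 62215.9, 52321.4 and 47723.4 in replicates 1, 2 and 3, while Postn was highest on replicate 3 and Fn1 on replicate 2.

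Tenascin-C, a glycoprotein that loosens the grip of cells on fibronectin, had nearly the same mean at both ages. Tnc read 504.2, 548.7 and 483.0 on day 1 and 595.9, 537.6 and 387.1 on day 7. Here the spread was wider on day 7, where replicate 1 was the highest and replicate 3 the lowest of all 6 arrays. The means were 512.0 ± 33.5 and 506.8 ± 107.7 (SD, n = 3), and the log2 change was -0.04 (SE 0.17; limma adjusted p = 0.923; 95% interval 0.75-fold to 1.28-fold). Its sign has no meaning, since it turned with quantile normalization (0.05), with array weights (0.04), with the muscle median as a covariate (0.22), and when day 1 replicate 2 (0.01) or day 7 replicate 3 (0.15) was left out.

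Versican stood lower on day 7, short of the threshold. Vcan read 952.3, 1205.0 and 1065.2 on day 1 and 862.2, 936.8 and 744.5 on day 7. All day 7 arrays lay below all day 1 arrays, with a narrow gap between 936.8 and 952.3. The means were 1074.2 ± 126.6 and 847.8 ± 96.9 (SD, n = 3). The log2 change was -0.34 (SE 0.14; limma adjusted p = 0.196), or 1.27-fold lower, with a 95% interval of 0.63-fold to 0.98-fold.

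The 4 other Vcan probe sets gave changes of -0.31, -0.33, -0.40 and -0.51, all of the same sign and none past the threshold (limma adjusted p from 0.125 to 0.263), where 2.15% of all probe sets were called lower. In 3 of the 4 the day 7 arrays all lay below the day 1 arrays, as in 13.8% of all probe sets. The suffix _a marks a probe set that detects several transcripts of 1 gene and _x one whose probes can share sequence with other transcripts. Probe set 1388142_at, with neither suffix, read 907.1, 1192.3 and 1141.6 on day 1 and 800.9, 828.7 and 812.8 on day 7. Its day 7 arrays lay close together and below every day 1 array. Probe set 1388265_x_at had the largest change of the 5 and read 150.6, 194.6 and 207.2 on day 1 and 131.1, 146.8 and 107.4 on day 7. Probe set 1388054_a_at was the exception to the separation of the ages, with 874.8 as its lowest value on day 1 and 949.1 as its highest on day 7. The dimmest, 1371233_at, read 27.9 to 30.1 on day 1 and 21.6 to 24.5 on day 7. The 5 probe sets measure the same gene on the same arrays and are not independent evidence.

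Has2, the enzyme that makes most of the long-chain hyaluronan of embryonic connective tissue, read 74.5, 118.1 and 108.3 on day 1 and 77, 80.4 and 67.4 on day 7. Day 1 replicate 1 lay among the day 7 arrays, and the other day 1 arrays lay above them. The means were 100.3 ± 22.8 and 74.9 ± 6.73 (SD, n = 3). The log2 change was -0.39 (SE 0.18; limma adjusted p = 0.250), or 1.31-fold lower, with a 95% interval of 0.57-fold to 1.02-fold. Day 1 replicate 1 is also the array with the high epidermal keratins, and without it the log2 change was -0.59 (limma adjusted p = 0.123, the lowest over its 17 alternatives, where it reached 0.917).

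Cd44 had the largest difference of the 6. It read 221.7, 188.2 and 221.7 on day 1 and 101.7, 162.7 and 115.6 on day 7. Every day 7 array lay below every day 1 array, and the arrays numbered 2 lay nearest to the other age. The means were 210.5 ± 19.3 and 126.7 ± 32 (SD, n = 3). The log2 change was -0.75 (SE 0.18), or 1.69-fold lower, with a 95% interval of 0.44-fold to 0.79-fold, and its limma adjusted p of 0.0636 missed the threshold. The second probe set read 134.4, 107.9 and 145.0 on day 1 and 47.2, 90.2 and 57.8 on day 7, with a log2 change of -1.02 (SE 0.23; limma adjusted p = 0.0575), or 2.03-fold lower. Both probe sets carry the _a suffix, and the deposited values do not separate the splice forms of CD44.

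The Cd44 call depended on the setting. It passed in 5 of 17 alternatives: with an intensity trend and robust variances (adjusted p = 0.0455), with array weights (0.0364), among the brighter probe sets (0.0447), without day 7 replicate 2 (0.0287) and without both arrays numbered 2 (0.0288). Its adjusted p was 0.188 when either array numbered 1 was left out, and ran from 0.0287 to 0.999 over the 17. The change kept its sign in all 17, from -1.02 to -0.16.

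The muscle and proliferation sums were lower on every day 7 array than on any day 1 array, as Cd44 was. The skeletal muscle list summed to 73358.0, 64313.0 and 79282.0 on day 1 and to 45572.4, 57791.2 and 39168.9 on day 7, so that replicate 2 lay nearest to the other age there too. With the muscle median as a covariate the Cd44 change was -0.16 (limma adjusted p = 0.928), but that covariate itself differed with age and left 3 residual degrees of freedom. Macrophages carry CD44 as other leukocytes do, and their 9 markers summed to 1132.1 to 1719.8 on day 1 and 1017.4 to 1273.0 on day 7. Adgre1 was called higher and none lower, and the median log2 change of the list was -0.27. Cd163 and C1qb, named after their values were seen, lay lower on every day 7 array than on any day 1 array, as 19.1% of all genes did. Their log2 changes, the lowest of the list, were -1.01 and -0.90 (limma adjusted p = 0.0988 and 0.108). Cd68, Cd14 and Adgre1 went the other way, at 0.06, 0.18 and 1.18, and Csf1r, Mrc1, C1qa and Aif1 overlapped between ages. These macrophage sums overlapped between ages, and day 1 replicate 1, one of the arrays where Cd44 was highest, had the lowest of day 1. On day 7 replicate 2, where Cd44 was highest within its age and without which it passed, the adipocyte and nerve sums were the lowest of day 7 (2899.2 and 2256.4). Of 8 proliferation genes 6 were called lower and none higher, and their sum was 3150.1 to 3731.6 on day 1 and 1746.5 to 2017.4 on day 7. With their median as the covariate in its place the Cd44 change was -0.45 (limma adjusted p = 0.999), and that covariate too differed with age. The part of muscle and of proliferating cells in the Cd44 difference was not tested beyond these fits. That of macrophages, adipocytes and nerve was not tested at all. Keratinocytes also make CD44, and without day 1 replicate 1, the array with high keratins, the log2 change was -0.71. The part of epidermis in the Cd44 difference was not tested.

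**Figure D2:**
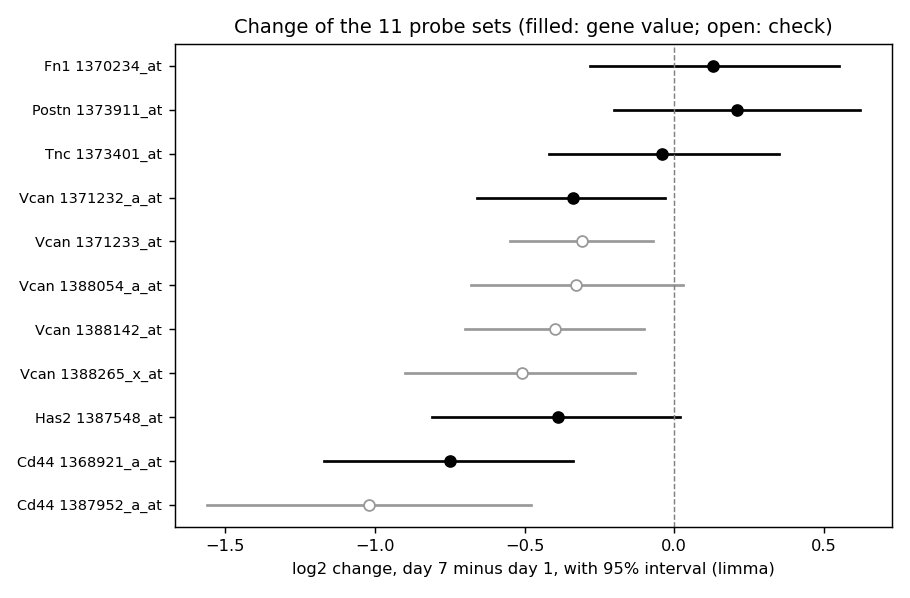
Log2 change from day 1 to day 7 (horizontal axis) of the 11 probe sets, with 95% intervals from limma that are not adjusted for multiple tests, filled for the probe set that stands for the gene and open for the others. Fn1, Postn and Tnc lie around 0, and the 5 Vcan probe sets, Has2 and both Cd44 probe sets lie below it.

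The changes of the members were also set against one another. For each of the 15 pairs the difference between the 2 log2 changes was tested with a two-sided exact permutation test over the arrays, for which 0.1 is the smallest p that 3 against 3 allows. The change of Cd44 lay 0.96 below that of Postn and 0.89 below that of Fn1, each with no overlap between ages in the per-array difference (exact permutation p = 0.1; 0.25 after Benjamini-Hochberg adjustment over the 15). It lay 0.72 below that of Tnc (exact permutation p = 0.1, adjusted 0.25). Vcan and Has2 differed from each other by 0.05 (exact permutation p = 0.8, adjusted 0.8), and Fn1 and Postn by 0.08 (exact permutation p = 0.7, adjusted 0.75). Vcan lay 0.48 below Fn1 and 0.55 below Postn (exact permutation p = 0.1, adjusted 0.25 for each). No pair could pass a threshold of 0.05 in this design.

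Within an age the members also had different arrays at their extremes. Relative to its own mean over the 6 arrays, day 1 replicate 2 stood at 0.28 for Fn1, 0.23 for Postn, 0.34 for Vcan and 0.46 for Has2 on the log2 scale, the highest of the 6 arrays for each. Day 1 replicate 3 stood at -0.40 for Fn1 and -0.48 for Postn but at 0.17 for Vcan and 0.33 for Has2. Day 7 replicate 3 was the lowest array for Tnc (-0.38), Vcan (-0.35) and Has2 (-0.34), and day 7 replicate 1 the lowest for Cd44 (-0.66). The SD of log2 values was wider on day 1 for Fn1 (0.34 against 0.14), Postn (0.35 against 0.08) and Has2 (0.35 against 0.13) and wider on day 7 for Tnc (0.32 against 0.09) and Cd44 (0.35 against 0.14). These SDs rest on 3 arrays each and were not compared by a test. The 3'/5' ratio of beta-actin, a sign of RNA quality, was highest on day 7 replicate 3 (3.35, against 1.80 to 2.85 on the other arrays). That of GAPDH was highest on day 7 replicate 1 (2.09), with 2.00 on day 7 replicate 3 and 1.73 to 1.80 elsewhere. Day 7 replicates 1 and 3, with these higher GAPDH ratios, also had the lowest Cd44 values (-0.66 and -0.48, against 0.01 on day 7 replicate 2). The part of RNA quality in these Cd44 values was not tested. Nor was its part in the low Tnc, Vcan and Has2 values on day 7 replicate 3.

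**Figure D3:**
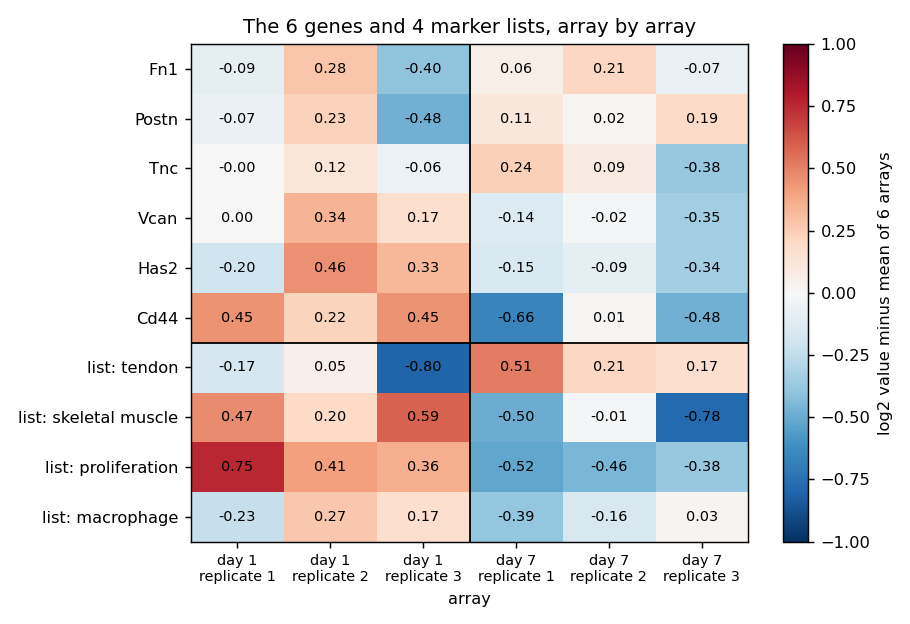
Log2 value on each array minus the mean of the 6 arrays, for the 6 genes (top) and for the median gene of 4 marker lists (bottom), red above and blue below that mean. Fn1 and Postn are lowest on day 1 replicate 3 (-0.40 and -0.48), where the tendon list is also lowest (-0.80), and Cd44 is highest on day 1 replicates 1 and 3, where the muscle list is highest. Within day 7, Postn is highest on replicate 3 (0.19), where the tendon list is lowest of that age (0.17).

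The genes whose pattern over the 6 arrays was most like that of a member were ranked by Pearson's r among 6963 other genes with a mean log2 value of at least 6. With 6 arrays many genes reach a high r, so these names describe the arrays and carry no test. Closest to Fn1 were Spon2 (0.9807), Efs (0.9799) and Srp72 (0.9785), and closest to Postn were Hm13 (0.9960), Lnc215 (0.9881) and Npdc1 (0.9877). Closest to Tnc were Slc12a4 (0.9698), Pdzd8 (0.9658) and Hs6st1 (0.9536). Closest to Vcan were Ogfr (0.9915), Cyba (0.9864) and Lrrc42 (0.9801), and closest to Has2 were Tmem9 (0.9882), Gtpbp2 (0.9714) and Cog6 (0.9699). Closest to Cd44 were Sirt5 (0.9949), Psmd1 (0.9949) and Exoc3 (0.9935). None of these 18 genes passed the threshold itself (limma adjusted p from 0.0726 for Psmd1 to 0.977 for Slc12a4).

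Around the members, the genes that make, bind and remove hyaluronan were mostly not called. Of 23 measured genes of this list (29 listed; Has1 and Has3 were not analysed here) 1 fell and 0 rose, and their median log2 change was 0.02, beside 3.15% and 1.93% of all genes and a median of -0.01. The gene that fell was Hmmr, which encodes the hyaluronan receptor RHAMM, also a protein of the mitotic spindle. It read 61.1, 45.6 and 48.6 on day 1 and 29, 28.9 and 25 on day 7, with no overlap. The log2 change was -0.88 (SE 0.14; limma adjusted p = 0.0243). Most proliferation genes listed above were called lower on the same arrays. With their median as a covariate the Hmmr change was -0.17 (limma adjusted p = 0.999), but that covariate differed with age. The part of proliferation in the Hmmr difference was not tested beyond this fit. Leaving out either array numbered 1 or either numbered 3 ended the Hmmr call (adjusted p from 0.0625 to 0.102). With the mean of its probe sets in place of the brightest it missed the threshold too, at -0.59 (limma adjusted p = 0.0998).

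The further hyaluronan genes given here were chosen after their values were seen. The sugar donor enzymes Ugp2 and Ugdh had log2 changes of -0.46 and -0.32 (limma adjusted p = 0.183 and 0.118), of the same sign as Has2. The hyaluronan-degrading factor Cemip changed by 1.04 (0.0584). In the same list Cemip2, Hyal2 and Hyal3 went the other way, at -0.38, -0.31 and -0.22 (0.193, 0.164 and 0.434). The link proteins Hapln1 and Hapln3, which lock proteoglycans onto hyaluronan, changed by 1.38 (0.103) and 1.02 (0.0559). Their day 1 intensities were low, at 10.6 to 13.2 and 10 to 15.4. Hapln2 and Hapln4 changed by 0.09 (0.698) and -0.03 (0.924). Aggrecan, Acan, the large hyaluronan-binding proteoglycan of cartilage and a relative of versican, read 127.2, 214.2 and 88.9 on day 1 and 414.0, 306.2 and 179.9 on day 7, a log2 change of 1.07 (0.147) opposite in sign to that of Vcan. Hapln1 and Acan also belong to the cartilage marker list, whose sum ran from 1533.8 to 3664.6 on day 1 and from 4108.5 to 6844.4 on day 7. Lyve1, the hyaluronan receptor of lymphatic vessels and some macrophages, had a log2 change of 0.02 (0.931).

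Among fibronectin receptors and adhesion proteins, 29 of 31 listed genes were measured, and 3 fell and 1 rose, where 3.15% and 1.93% of all genes did. Their median was 0.01, beside -0.01 over all genes. Itga5, the alpha chain of the classical fibronectin receptor, read 77, 91.1 and 72.3 on day 1 and 50.9, 55 and 55.2 on day 7. All its day 7 values lay below those of day 1 (log2 change -0.56, SE 0.12; limma adjusted p = 0.0490). Its partner Itgb1 changed by -0.06 (0.760) and Itgav by 0.13 (0.584), both named after their values were seen. Zyxin, Zyx, an adaptor of focal adhesions, had a log2 change of -0.72 and passed (limma adjusted p = 0.0293).

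The other calls of that list were 2 genes often high in epithelia. Itgb6, the beta chain of an integrin that binds fibronectin and activates latent TGF-beta, read 78.4, 61.7 and 129.9 on day 1 and 27.1, 45.2 and 28.2 on day 7 (log2 change -1.37; limma adjusted p = 0.0485). It was highest on day 1 at replicate 3 and on day 7 at replicate 2, as was the skeletal muscle sum, and with the muscle median as a covariate its log2 change was -0.31 (limma adjusted p = 0.893). That covariate differed with age and left 3 residual degrees of freedom, and no gene of the lists was called in that fit. Day 1 replicate 1, with the high keratins, lay between the other day 1 arrays. The part of muscle in the Itgb6 difference was not tested beyond the covariate fit, and that of epidermis was not tested. Sdc1, a heparan sulphate proteoglycan that binds fibronectin, read 263.4, 305.0 and 187.8 on day 1 and 804.4, 531.5 and 435.7 on day 7 (log2 change 1.21; limma adjusted p = 0.0471). These calls were close to the threshold. With the mean of probe sets per gene, Sdc1 and Itgb6 missed it (limma adjusted p = 0.0612 and 0.0506). Itga5 and Zyx passed there (0.0458 and 0.0276). Itga5 and Sdc1 missed the threshold whichever array was left out (adjusted p from 0.0788 to 0.165 and from 0.0510 to 0.136). Zyx and Itgb6 passed when an array numbered 2 was left out and in no other fit of that kind, and the list had 0 calls when an array numbered 1 or 3 was left out.

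Of the other tenascins and matricellular proteins 20 of 22 listed genes were measured, and 1 rose and 1 fell, where 1.93% and 3.15% of all genes did. Their median was 0.24, beside -0.01 over all genes. Smoc2, a secreted calcium-binding relative of SPARC, read 1273.1, 1244.4 and 1099.6 on day 1 and 432.9, 523.9 and 439.6 on day 7. The ages lay far apart (log2 change -1.37, SE 0.12; limma adjusted p = 0.0104). Only the fit without day 7 replicate 1, among those without 1 array, missed the threshold (0.0679). With the mean of its probe sets in place of the brightest, the log2 change was -0.73 (adjusted p = 0.0244). Comp, a pentameric matrix protein of tendon and cartilage, rose, with a log2 change of 2.28 (limma adjusted p = 0.0285). It passed in 2 of the 6 fits that left out an array, and it stands in the tendon marker list too. The list had 4 calls higher without day 1 replicate 2, and 0 when day 1 replicate 1 or 3, or day 7 replicate 1 or 2, was left out. Tgfbi, the closest relative of periostin, read 1643.9, 2367.4 and 1092.5 on day 1 and 3558.0, 3278.9 and 3137.7 on day 7. Its log2 change of 1.03 (0.0657) was chosen for mention after its values were seen, and stands beside 0.21 for Postn. The tenascins Tnn and Tnr read below 12 on every array and had log2 changes of -0.33 (0.281) and 0.07 (0.773).

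Of 33 measured genes (36 listed) for the cleavage, sulphation and cell-surface partners of versican, CD44 and fibronectin, none passed in limma, with a median of 0.02, beside -0.01 over all genes. At an unadjusted p under 0.05, 6 were higher and 2 lower, where 10.6% and 17.0% of all genes were. The smallest p-values were those of Timp2, an inhibitor of matrix metalloproteinases (log2 change 0.84; limma adjusted p = 0.0501), and Ank3, an ankyrin that links membrane proteins to spectrin (-0.82; 0.0518). Without day 1 replicate 2 this list had 2 genes higher and 1 lower. The versican-cleaving proteases Adamts1, Adamts4, Adamts5, Adamts9 and Adamts15, given here as a group after their values were seen, had log2 changes of -0.34, -0.21, 0.09, -0.38 and -0.17 (limma adjusted p from 0.243 to 0.730). Msn and Rdx, which couple the tail of CD44 to actin, changed by 0.02 (0.960) and -0.08 (0.718), and Ezr, their relative, by 0.37 (0.211). These 3, like the tenascins Tnn and Tnr, were named after their values were seen.

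**Figure D4:**
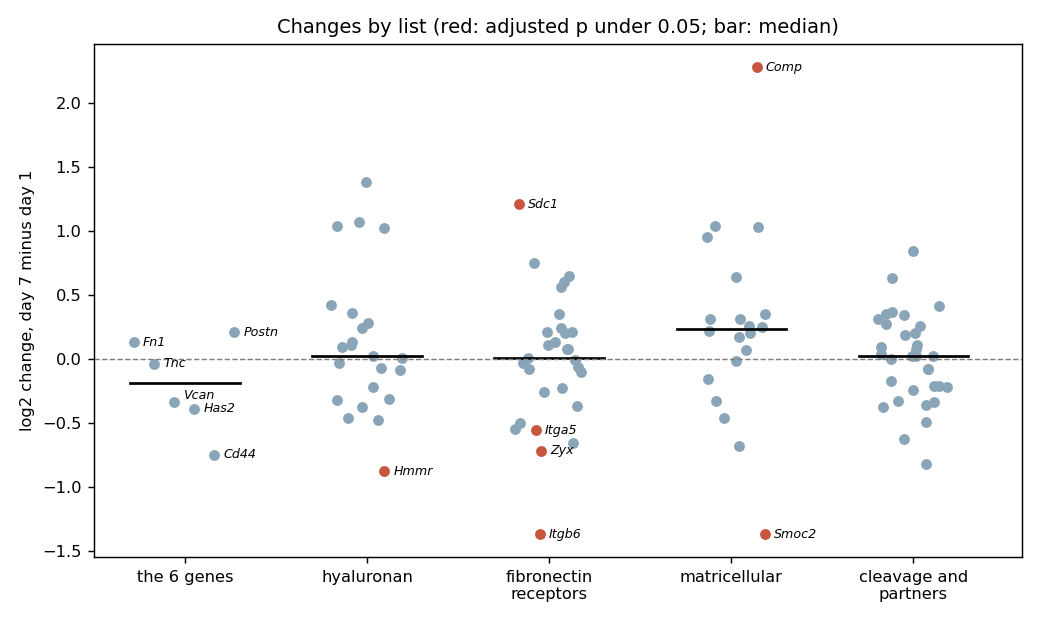
Log2 change from day 1 to day 7 (vertical axis) of the 6 genes and of each measured gene of 4 lists, in red where the adjusted p in limma was under 0.05, with a bar at the median. The 6 genes hold no call, and the called genes of the lists are Hmmr, Sdc1, Itga5, Zyx, Itgb6, Comp and Smoc2.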

How the data were processed

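Rat Achilles tendons of post-natal day 1 and day 7 were profiled, 3 arrays per age. The authors deposited linear intensity values, 1 for each probe set on each array. MAS5 and RMA are listed in the submitters' processing notes, with no statement of which made these values or how they were scaled, so a remaining scale difference between ages can move all members. The upper quartile was 94.3 to 95.9 on day 1 and 84.1 to 91.8 on day 7.

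Of 31099 probe sets, 57 controls were left out. Values were taken as log2(value + 1), with no further normalization or filter, and day 7 was compared with day 1 by limma 3.58.1 in R 4.3.3 (lmFit, eBayes, two-sided), with Benjamini-Hochberg adjustment over 31042 probe sets. The code was tested on simulated data. Symbols come from the platform annotation: 20826 probe sets have 1 symbol, 436 several and 9780 none.

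The members and lists were chosen with earlier results of these data known, and the lists and markers were written from textbook knowledge. Named genes were the 6 members, the called genes of each list or, where none was called, the 2 with the smallest p, and the 3 genes most like each member; other names are said to be later choices. Differences between members used exact permutation tests. Samples with the same replicate number did not deviate together, so the numbers were not taken as pairs. For arrays the number of arrays limits the precision. Alternatives are given in the closing section.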

Additional observations from a re-analysis of the deposited data

How the results depend on the processing

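Over 8 results (the 6 log2 changes and the counts of members higher and lower) and 17 alternatives, direction and side of the threshold were kept in 119 of 136 cases. No member was called higher under any alternative, and the count of members lower was 1, Cd44, with array weights, an intensity trend, the brighter probe sets, without both arrays numbered 2 and without day 7 replicate 2, and 0 otherwise (0 to 1 without 1 array). The Cd44 log2 change passed at -0.80 with array weights, -0.75 with the trend, -0.75 among the brighter probe sets and -1.02 without both arrays numbered 2, and ran from -0.95 to -0.61 without 1 array. The sign of Tnc turned with quantile normalization (0.05), array weights (0.04) and the muscle covariate (0.22), and its values without 1 array ran from -0.16 to 0.15. That of Postn turned with the muscle covariate (-0.23; 0.02 to 0.38 without 1 array) and that of Fn1 without day 1 replicate 3 (-0.03 to 0.31 without 1 array). The causes were not tested.

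The replicate number as a block gave a Cd44 change of -0.75 (limma adjusted p = 0.152) and no call among the members; the deviations of arrays with the same number correlated at 0.13, -0.27 and -0.09, so the numbers are not known to pair the samples. Both covariate fits left 3 residual degrees of freedom and no call in the 4 lists. Each covariate separated the ages by itself, the proliferation median standing at 0.36 to 0.75 on day 1 and -0.52 to -0.38 on day 7. These fits can hardly tell age from covariate, so their log2 changes cannot be read as sizes adjusted for muscle or proliferation. With the proliferation median as covariate the log2 change of Has2 was -1.91 and of Vcan -1.05 (adjusted p = 0.917 and 0.999), and of Itgb6 -2.08, Zyx -1.36, Comp 1.10 and Hmmr -0.17 (0.999 each).

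Counts in the lists moved by over 1.5 times. Hyaluronan genes called higher were 0 in the fit reported and 3 with array weights, 2 with the trend, and 1 with quantile normalization, the brighter probe sets or without both arrays numbered 2; called lower, 1 became 2 without both arrays numbered 2 and 0 with the mean of probe sets or the block. Fibronectin receptor genes higher went from 1 to 2 with array weights and 0 with the mean of probe sets, a pseudocount of 16, the block or without both arrays numbered 2; lower, from 3 to 1 with quantile normalization or without both arrays numbered 2 and 0 with the block. Matricellular genes higher went from 1 to 4 with array weights, the trend, the brighter probe sets or without both arrays numbered 2, 3 with quantile normalization, 2 with median centring, and 0 with a pseudocount of 16 or the block. Cleavage and partner genes higher went from 0 to 1 in each alternative but the block, the covariates and the fits without 1 array, and lower from 0 to 1 with array weights, the trend, the brighter probe sets or without both arrays numbered 2. Without 1 array the counts higher ran from 0 to 2, 0 to 1, 0 to 4 and 0 to 2 in these 4 lists and the counts lower from 0 to 1, 0 to 2, 0 to 1 and 0 to 1. Signal over background limits Tnn, Tnr, Hapln1, Hapln3 and the dimmest Vcan probe set, and the probe sets that stand for the members lay far above the trp controls.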
